A study of Mus musculus with 18 samples.

Results

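To examine how far the macrophage response to LPS depends on Prep, the response was compared between bone marrow-derived macrophages (BMDMs) of Prep-/- mice and of their heterozygous Prep+/- littermates. The comparison used 12 of the 18 libraries of the series, 3 biological replicates in each of 4 groups, and took all genes that passed a filter on low counts, 12021 of 16314 gene symbols. In each genotype the LPS response of a gene was the log2 fold change between stimulated (M1) and unstimulated (M0) BMDMs. The interaction was the response in Prep-/- minus the response in Prep+/- BMDMs, so that a positive value means a response shifted upward without Prep. A response counted as called when its edgeR adjusted p was below 0.05 and its fold change above 1.5. Among genes called for the interaction, a response was termed lost when it was called in Prep+/- BMDMs alone, gained when it was called in Prep-/- BMDMs alone, reversed when it was called in both with opposite signs, and weaker or stronger when it was called in both with the same sign.

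Both genotypes were on a C57BL6/J background, and bone marrow from the femora was cultured over 7 days in 50 ng/ml of M-CSF, the growth factor that drives precursors into macrophages. M0 BMDMs received no further stimulus, and M1 BMDMs received LPS at 50 ng/ml for 24 h. The remaining 6 libraries, of BMDMs treated with IL-4 and IL-13 (M2), entered the fit and are used below for a side-by-side comparison of selected genes. The controls carried a deleted Prep allele as well, so a difference from wild-type BMDMs was not measured. The knockout was carried by the mouse and not made in the culture, so a change in the marrow precursors and one in the macrophages themselves cannot be told apart. Age and sex of the marrow donors are not given in the sources used here.

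LPS, a cell wall component of Gram-negative bacteria, is handed by CD14 to the receptor TLR4 and its partner MD-2 on the macrophage surface. From there one branch runs through MyD88 to NF-κB and the MAP kinases and induces cytokines and chemokines, while a second branch runs through TRIF to IRF3 and type I interferon, which in turn induces interferon-stimulated genes. LPS also slows the division of BMDMs that grow under M-CSF, turns their metabolism toward glycolysis and alters lipid synthesis. Prolyl endopeptidase (PREP) is a serine peptidase that cleaves short peptides after proline.

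The targeted gene separated the genotypes in both states. *Prep* normalized counts, listed here and below in the order of replicates 1 to 3 and scaled to a common library size, were 638, 739 and 900 in Prep+/- M0 against 681, 551 and 663 in Prep+/- M1, and 42.2, 42.5 and 31.3 in Prep-/- M0 against 35.2, 47 and 59.2 in Prep-/- M1. No Prep-/- library reached the level of any Prep+/- library, and the response of *Prep* itself to LPS did not differ between the genotypes at the threshold (interaction 0.55, standard error 0.26, edgeR adjusted p = 0.136). The position of the deletion within the gene is not given in the sources used here, and the remaining counts cannot be placed within the transcript.

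The 12 libraries held between 19068237 and 22598279 counts. Macrophage markers summed to 19000 to 22400 CPM in Prep+/- M0, 45800 to 47200 in Prep+/- M1, 30400 to 48200 in Prep-/- M0 and 31000 to 37000 in Prep-/- M1. Of 8 macrophage markers tested, 6 were higher in Prep-/- M0, against 15.4% of all genes tested. A lower response in Prep-/- BMDMs was called for 4 of them, against 9.15% of all genes, and a higher one for 0. Granulocyte markers summed to 31.9 to 44.1 CPM in Prep+/- M0, 79.1 to 145 in Prep+/- M1, 68.1 to 156 in Prep-/- M0 and 51.5 to 71.6 in Prep-/- M1. Of these 11 markers 6 passed the filter, and 5 of the 6 had a lower response in Prep-/- BMDMs, against 9.15% of all genes tested. In M0, 5 of the 6 were higher in Prep-/- BMDMs, against 15.4% of all genes. T and NK cell markers summed to 8.07 to 29.9 CPM in Prep-/- M0 and to 3.27 CPM or less elsewhere, nearly all of it *Cd4* (7.84 to 29.6 CPM in Prep-/- M0), while *Cd3d* was at 0 in every Prep-/- library. B cell markers were at most 12 CPM, nearly all of it *Cd79b* (8.66 to 11.5 CPM in Prep-/- M0), with *Cd79a* and *Ms4a1* at 0 in Prep-/- M0. *Vpreb1* had a mean of 0.436 CPM in Prep-/- M0 and 0.0698 in Prep+/- M0. Dendritic cell markers summed to 0.969 to 1.52 CPM in Prep-/- M0, against 0.2 to 0.547 in Prep+/- M0, and were at most 1.46 in the M1 groups. Erythroid markers were at most 0.377, mast cell and basophil markers at most 0.281 and stromal markers at most 29.8 CPM in each library. Hepatocyte markers other than *Hp*, which LPS raised in both genotypes, summed to 15.2 CPM in Prep-/- M0 replicate 3, of which *Alb* made up 11.8, and to 0.0538 CPM or less in the other 11 libraries. In these bulk libraries, fewer cells of a type and less RNA per cell cannot be told apart. In genes described below, a pair of libraries stood apart from their replicates: Prep-/- M0 replicate 1 in MHC class II genes, and Prep-/- M0 replicate 3 in hepatocyte markers and in ribosomal protein genes. Replicate 1 was also the highest of its group in *Cd4*, *Adgre4*, *Apoe* and *Gbp2*. Across genes, replicate 3 differed from replicates 1 and 2 by a chi-square per degree of freedom of 107 and 114, against 33.7 between those. For Prep-/- M2 replicate 3, which entered the fit, the values were 106 and 107, against 11.6.

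The LPS response depended on Prep in 2540 genes, 21.1% of those tested. It was shifted upward without Prep in 1440 genes (12%) and downward in 1100 (9.15%). LPS itself changed 4529 genes in Prep+/- BMDMs (37.7%) and 5048 in Prep-/- BMDMs (42%), with 2011 raised in the former and 2518 in the latter. Of the 2540 genes, 658 (5.47% of all tested) had lost their response, 878 (7.3%) had gained one, 111 (0.923%) had reversed it, 325 (2.7%) responded more weakly and 255 (2.12%) more strongly, while 313 (2.6%) were called for the interaction but for the response in neither genotype. Repressed genes outnumbered induced genes among the lost responses, with 422 against 236. The gained responses comprised 481 inductions and 397 repressions. Under the stricter definition that the response in the other genotype also stays under 1.5-fold, 614 lost and 821 gained responses remained. The excess of upward over downward shifts depended in part on the scaling of the libraries. The share of upward shifts was 56.7% with TMM and 53.2% with DESeq2-type size factors (1356 upward and 1195 downward). The median interaction was 0.0424 and 0.00916 in the same order.

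**Figure D1:**
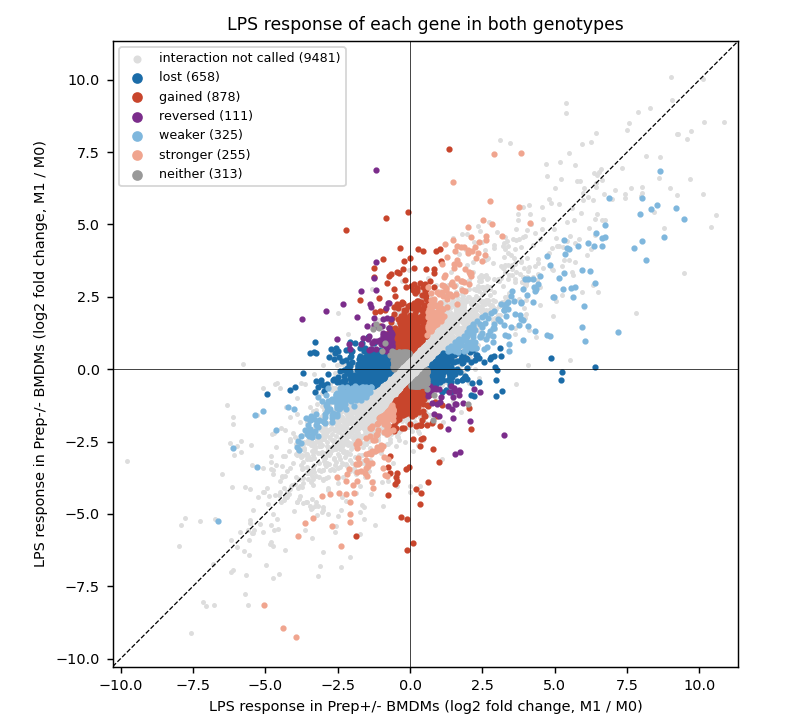
LPS response of each of the 12021 genes tested, as log2 fold change between M1 and M0, in Prep+/- BMDMs (horizontal axis) and in Prep-/- BMDMs (vertical axis), coloured by the class of the interaction, with the dashed line marking equal responses. The 658 lost responses lie along the horizontal zero line, the 878 gained responses along the vertical zero line, and the 111 reversed responses in the upper left and lower right quadrants.

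The interaction can come from a genotype difference before LPS, after it, or both. Among the 2540 genes the genotypes differed in M0 alone for 1260 and in M1 alone for 498, in both states with the same sign for 141 and with opposite signs for 166, and in neither state at the threshold for 475. In M0, 32.6% of all genes tested differed between the genotypes, and in M1 22.5%, with 12.3% higher and 10.2% lower in Prep-/- BMDMs. Lost inductions were typically genes that already stood higher in Prep-/- M0, with a median genotype difference of 0.71 on the log2 scale in M0 and -0.38 in M1. Lost repressions were the mirror image, with medians of -0.88 in M0 and 0.30 in M1. Gained inductions started lower in Prep-/- M0 (median -0.79) and ended higher in M1 (median 0.38). These medians describe genes that the same contrasts selected and carry no test.

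**Figure D2:**
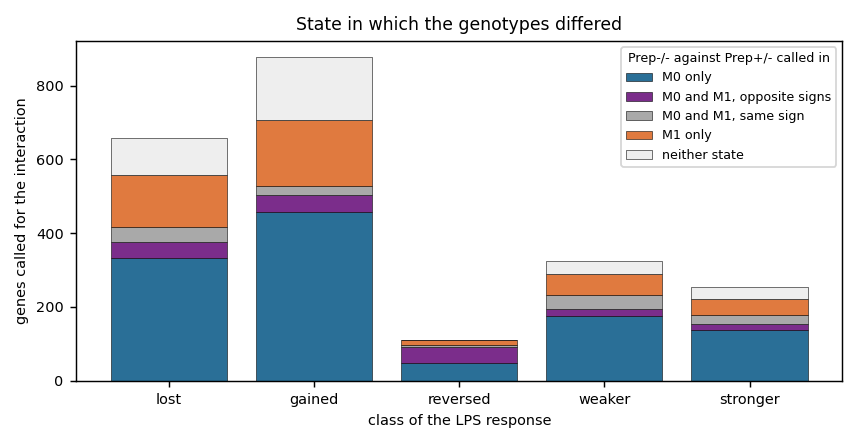
Number of genes in each class of the LPS response (bars), divided by the state in which Prep-/- and Prep+/- BMDMs differed at the threshold. In the lost class 333 of 658 genes and in the gained class 458 of 878 genes differed between genotypes in M0 alone, while 43 of the 111 reversed genes differed in both states with opposite signs.

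Lost inductions were led by *Thbs1*, *Ms4a4a* and *Ifitm1*. *Thbs1* (chr2:117941974-117957616, plus strand of GRCm39) encodes thrombospondin-1, a secreted matrix glycoprotein that can activate latent TGF-β. Its normalized counts were 232, 111 and 249 in Prep+/- M0 against 17255, 15860 and 16339 in Prep+/- M1, and 7336, 4357 and 2963 in Prep-/- M0 against 4986, 4236 and 6387 in Prep-/- M1. All 3 Prep+/- libraries rose far above their unstimulated level, whereas the Prep-/- libraries overlapped between M0 and M1. The response was 6.39 in Prep+/- and 0.09 in Prep-/- BMDMs (interaction -6.30, standard error 0.44, edgeR adjusted p = 5.98e-07). *Ms4a4a* (chr19:11352823-11370154, plus strand), a tetraspan membrane protein of the MS4A family, had counts of 332, 120 and 151 in Prep+/- M0 against 6840, 7958 and 8335 in Prep+/- M1, and 8426, 4946 and 6856 in Prep-/- M0 against 7403, 5115 and 6281 in Prep-/- M1. Every Prep-/- library, stimulated or not, lay near the stimulated Prep+/- level (interaction -5.37, standard error 0.53, edgeR adjusted p = 9.85e-06). *Ifitm1*, an interferon-induced transmembrane protein, behaved in the same way at a lower level, with 38.6, 15 and 11.9 in Prep+/- M0 against 212, 197 and 181 in Prep+/- M1, and 430, 194 and 215 in Prep-/- M0 against 198, 147 and 148 in Prep-/- M1 (interaction -3.95, standard error 0.56, edgeR adjusted p = 0.000167).

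Lost repressions were led by *Matn2*, *Cspg4* and *Arap2*. *Cspg4* (chr9:56772317-56807187, plus strand), the cell surface proteoglycan NG2, had normalized counts of 299, 453 and 467 in Prep+/- M0 against 28.5, 32.1 and 33.3 in Prep+/- M1, and 26.1, 23.9 and 24.4 in Prep-/- M0 against 13.2, 27.7 and 26.9 in Prep-/- M1. LPS lowered it in Prep+/- BMDMs, and all 6 Prep-/- libraries were under the stimulated Prep+/- level (interaction 3.57, standard error 0.51, edgeR adjusted p = 0.000183). For *Matn2*, a matrix protein of the matrilin family, the counts were 114, 149 and 153 in Prep+/- M0 against 3.42, 8.33 and 1.28 in Prep+/- M1, and 7.03, 23.9 and 36.1 in Prep-/- M0 against 15.4, 5.34 and 16.2 in Prep-/- M1, and the Prep-/- libraries overlapped between states (interaction 4.08, standard error 0.77, edgeR adjusted p = 0.00145). *Arap2*, a GTPase-activating protein for small GTPases, had 177, 228 and 355 in Prep+/- M0 against 42.2, 35.7 and 37.2 in Prep+/- M1, and 71.3, 65.6 and 56.6 in Prep-/- M0 against 85.8, 108 and 122 in Prep-/- M1. Here the genotypes differed in both states with opposite signs, by -1.97 in M0 and 1.45 in M1 on the log2 scale (interaction 3.42, standard error 0.55, edgeR adjusted p = 0.000417). *Matn2* overlaps another tested gene on the opposite strand. The kit was stranded, but how strand was handled in counting is not given in the sources used here, so that reads of overlapping genes on opposite strands may not have been told apart.

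Gained inductions were led by *Soat2*, *Pcdhgc3* and *Trib3*. *Soat2* (chr15:102058797-102071904, plus strand), which esterifies cholesterol, had normalized counts of 21.2, 22.5 and 25.4 in Prep+/- M0 against 18.2, 19 and 28.2 in Prep+/- M1, and 0, 1.77 and 7.81 in Prep-/- M0 against 181, 140 and 110 in Prep-/- M1. The Prep+/- libraries overlapped between states, and in Prep-/- BMDMs the gene rose from 7.81 normalized counts or fewer to 110 or more (interaction 5.53, standard error 0.78, edgeR adjusted p = 0.000167). *Trib3* (chr2:152179337-152191958, minus strand), a pseudokinase induced by amino acid shortage and endoplasmic reticulum stress, had 142, 205 and 221 in Prep+/- M0 against 204, 182 and 103 in Prep+/- M1, and 27.1, 39.9 and 78.1 in Prep-/- M0 against 734, 640 and 574 in Prep-/- M1. It started lower and ended higher in Prep-/- than in Prep+/- BMDMs, with no overlap in either state (interaction 3.96, standard error 0.48, edgeR adjusted p = 4.55e-05). *Pcdhgc3*, a protocadherin, had 162, 252 and 373 in Prep+/- M0 against 173, 74.9 and 87.2 in Prep+/- M1, and 19.1, 23.9 and 0 in Prep-/- M0 against 143, 222 and 124 in Prep-/- M1, but it shares exons with the other genes of its cluster, and how shared reads were assigned is not known (interaction 4.71, standard error 0.99, edgeR adjusted p = 0.00302).

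Gained repressions were led by *Ccdc152*, *Adgre4* and *Fxyd2*, which among the 4 groups compared stood high in Prep-/- M0 alone. In M2 they were also higher in Prep-/- than in Prep+/- BMDMs, by 2.377, 3.015 and 2.575 on the log2 scale. *Adgre4* (chr17:56056984-56175274, plus strand), an adhesion receptor of the same family as the macrophage marker F4/80, had normalized counts of 51.1, 33.4 and 37.3 in Prep+/- M0 against 43.3, 39.3 and 48.7 in Prep+/- M1, and 2082, 880 and 490 in Prep-/- M0 against 8.8, 29.9 and 14 in Prep-/- M1. LPS brought it in Prep-/- BMDMs under the level that the Prep+/- BMDMs held in both states (interaction -6.13, standard error 0.77, edgeR adjusted p = 6.2e-05). *Fxyd2*, a regulatory subunit of the sodium-potassium pump, followed with 29.9, 25.9 and 11.9 in Prep+/- M0 against 31.9, 32.1 and 20.5 in Prep+/- M1, and 1253, 638 and 659 in Prep-/- M0 against 45.1, 22.4 and 33.4 in Prep-/- M1 (interaction -4.99, standard error 0.67, edgeR adjusted p = 0.000113). *Ccdc152* had 5.79, 4.18 and 9.33 in Prep+/- M0 against 5.7, 8.33 and 3.85 in Prep+/- M1, and 107, 98.3 and 153 in Prep-/- M0 against 1.1, 0 and 3.23 in Prep-/- M1, a fall in Prep-/- BMDMs to a group with 3 counts or fewer per library and thus at least 36.9-fold. Its fitted interaction depends on the prior count (interaction -6.15, standard error 0.95, edgeR adjusted p = 0.000331). It lies opposite *Selenop*, the gene of the selenium carrier selenoprotein P, which was named after its values were seen and showed an interaction of -2.82 (standard error 0.35, edgeR adjusted p = 5.22e-05). *Adgre4* also overlaps tested genes on the opposite strand.

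Among the 111 reversed responses, 75 fell in Prep+/- and rose in Prep-/- BMDMs, led by *Aqp9*, *Phgdh* and *Fads2*. *Aqp9* (chr9:71017928-71075964, minus strand), a channel for water, glycerol and urea, had normalized counts of 67.5, 86 and 84.8 in Prep+/- M0 against 31.9, 30.9 and 42.3 in Prep+/- M1, and 1, 0 and 3.91 in Prep-/- M0 against 228, 212 and 171 in Prep-/- M1. LPS lowered it in Prep+/- libraries (log2 fold change -1.18) and raised it from near zero in Prep-/- libraries (6.89), the largest absolute interaction among the genes named here (interaction 8.07, standard error 0.64, edgeR adjusted p = 2e-06). *Phgdh* (chr3:98220484-98255047, minus strand), which commits a glycolytic intermediate to serine synthesis, had 852, 707 and 802 in Prep+/- M0 against 50.1, 74.9 and 53.9 in Prep+/- M1, and 56.2, 146 and 355 in Prep-/- M0 against 486, 770 and 599 in Prep-/- M1. The Prep+/- libraries fell (log2 fold change -3.72) and the Prep-/- libraries rose (1.74), both without overlap (interaction 5.45, standard error 0.60, edgeR adjusted p = 2.53e-05). *Fads2*, the delta-6 desaturase of polyunsaturated fatty acids, had 405, 338 and 396 in Prep+/- M0 against 77.5, 38.1 and 33.3 in Prep+/- M1, and 203, 227 and 323 in Prep-/- M0 against 869, 1274 and 880 in Prep-/- M1 (interaction 4.93, standard error 0.80, edgeR adjusted p = 0.000486).

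The opposite reversal, a rise in Prep+/- and a fall in Prep-/- BMDMs, was seen in 36 genes, led by *H2-Ab1*, *Adam19* and *Fam43a*. *Adam19* (chr11:45946775-46038172, plus strand), a membrane-anchored metalloprotease, had normalized counts of 69.5, 27.6 and 56 in Prep+/- M0 against 175, 180 and 154 in Prep+/- M1, and 561, 402 and 263 in Prep-/- M0 against 37.4, 80 and 49.5 in Prep-/- M1. Both changes were free of overlap between states (interaction -4.61, standard error 0.54, edgeR adjusted p = 4.13e-05). *Fam43a* had 107, 113 and 74.6 in Prep+/- M0 against 262, 316 and 290 in Prep+/- M1, and 789, 630 and 532 in Prep-/- M0 against 52.8, 115 and 87.2 in Prep-/- M1, also with no overlap (interaction -4.49, standard error 0.41, edgeR adjusted p = 5.33e-06). *H2-Ab1* is described with the MHC class II genes.

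**Figure D3:**
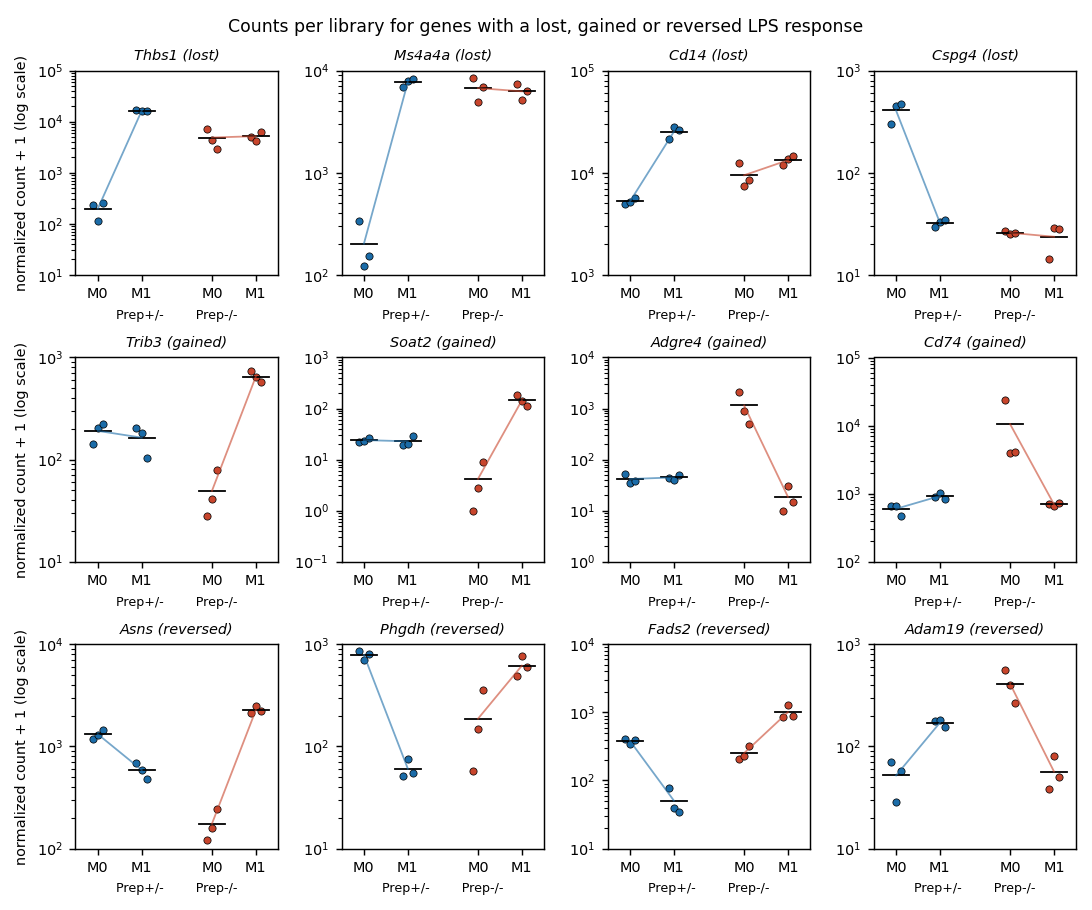
Normalized count plus 1 (log axis, scale set for each gene) in each of the 12 libraries (points) with the mean of each group of 3 (horizontal bars), for 4 genes with a lost, 4 with a gained and 4 with a reversed LPS response. *Thbs1* rose from between 111 and 249 to between 15860 and 17255 normalized counts in Prep+/- BMDMs and did not separate between states in Prep-/- BMDMs, while *Asns* fell in Prep+/- and rose in Prep-/- BMDMs.

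Of the 8 polarization markers used in the study, *Il1b* was the one whose interaction passed the test. *Il1b*, the gene of the inflammatory cytokine IL-1β, had normalized counts of 22.2, 29.2 and 20.4 in Prep+/- M0 against 12909, 18853 and 19015 in Prep+/- M1, and 188, 64.7 and 41 in Prep-/- M0 against 2036, 4321 and 4233 in Prep-/- M1. It was induced in both genotypes, by 9.46 on the log2 scale in Prep+/- and 5.18 in Prep-/- BMDMs, and thus fell in the weaker class (interaction -4.27, standard error 0.61, edgeR adjusted p = 0.000179). *Tnf* rose by 3.50 and 3.93. Its counts were lower in Prep-/- BMDMs in both states, and its interaction was 0.43 (standard error 0.71, edgeR adjusted p = 0.687). *Nos2*, encoding the inducible nitric oxide synthase, had 0.965, 2.51 and 0 in Prep+/- M0 against 807, 481 and 705 in Prep+/- M1, and 5.02, 7.09 and 0 in Prep-/- M0 against 7996, 2309 and 3443 in Prep-/- M1. The stimulated Prep-/- libraries were above the stimulated Prep+/- libraries without overlap, but the interaction, fitted on unstimulated counts of 7.09 or fewer, did not pass the test (edgeR adjusted p of the interaction = 0.783). *Il6* was at 3 counts or fewer per library in both M0 groups, and its rise was at least 79.1-fold in Prep+/- and at least 29-fold in Prep-/- BMDMs (edgeR adjusted p of the interaction = 0.271). For *Arg1*, *Mrc1*, *Chil3* and *Retnla* the interactions were -0.53, -0.14, -1.24 and 0.82, with edgeR adjusted p between 0.0655 and 0.698. The lowest of these was that of *Chil3*, which was called with DESeq2 (DESeq2 adjusted p = 0.026) and in edgeR without Prep-/- M0 replicate 2 or Prep-/- M0 replicate 3, with an interaction between -1.55 and -0.632 and an adjusted p between 0.011 and 0.262 over all alternatives.

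The weaker and stronger responses kept their direction in both genotypes. *Acpp*, an acid phosphatase now named Acp3, had normalized counts of 13.5, 17.5 and 7.63 in Prep+/- M0 against 711, 912 and 949 in Prep+/- M1, and 48.2, 36.3 and 17.6 in Prep-/- M0 against 42.9, 90.7 and 64.6 in Prep-/- M1, a response of 6.04 in Prep+/- and 0.96 in Prep-/- BMDMs (interaction -5.08, standard error 0.51, edgeR adjusted p = 1.15e-05). *Cp*, encoding the ferroxidase ceruloplasmin, had 2.89, 7.52 and 3.39 in Prep+/- M0 against 1643, 1203 and 1300 in Prep+/- M1, and 392, 179 and 45.9 in Prep-/- M0 against 3040, 2983 and 2490 in Prep-/- M1, and its response was smaller although the stimulated Prep-/- libraries were the highest (interaction -4.38, standard error 0.85, edgeR adjusted p = 0.00174). *Ntng2* was the other gene leading the weaker inductions (interaction -4.50), and *Pcp4l1*, *Arhgap33* and *Ccsap* led the weaker repressions (3.77, 2.52 and 2.2). Among stronger responses *Klra2*, a lectin-like receptor of the Ly49 family, had 93.6, 129 and 111 in Prep+/- M0 against 1507, 1649 and 1642 in Prep+/- M1, and 12, 7.09 and 8.79 in Prep-/- M0 against 1622, 1520 and 1818 in Prep-/- M1. The stimulated libraries of both genotypes met at one level, and the Prep-/- libraries reached it from a lower start (interaction 3.63, standard error 0.41, edgeR adjusted p = 3.15e-05). *Rmi2* and *Runx3* also led the stronger inductions (3.13 and 2.97). *Gpr34*, a receptor for lysophosphatidylserine, was the mirror case with 196, 89.4 and 131 in Prep+/- M0 against 2.28, 8.33 and 8.98 in Prep+/- M1, and 1566, 1470 and 1418 in Prep-/- M0 against 2.2, 4.27 and 2.15 in Prep-/- M1 (interaction -4.55, standard error 0.79, edgeR adjusted p = 0.000821). The lectin receptors *Clec10a* and *Clec7a* fell from 3089, 2251 and 2868 to 69.3, 70.4 and 68.9 and from 4828, 3775 and 2776 to 295, 192 and 403 in Prep-/- BMDMs, against 372, 257 and 202 to 57, 63.1 and 78.2 and 907, 793 and 886 to 354, 509 and 616 in Prep+/- BMDMs. The Prep-/- libraries started higher, and the interactions were -3.23 and -2.87. *Clec10a* has a near-identical copy, *Mgl2*, which moved the same way (-2.62, not called without Prep+/- M1 replicate 3), so the split of reads between them is uncertain.

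Gene lists put these classes in order by function. There were 20 lists written from general knowledge, plus 1 on amino acid supply and ATF4 targets that was added after values had been seen. The 20 lists were chosen with earlier results of these data known. The study had already named steroid biosynthesis, DNA replication, cell cycle, ribosome and lysosome pathways in these data. The shares of the lists are thus a description and no independent support. The count of members called was read against the background of 12% of all genes tested for upward and 9.15% for downward shifts. Median interactions of a list are on the log2 scale and stand against 0.04 for all genes tested.

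**Figure D4:**
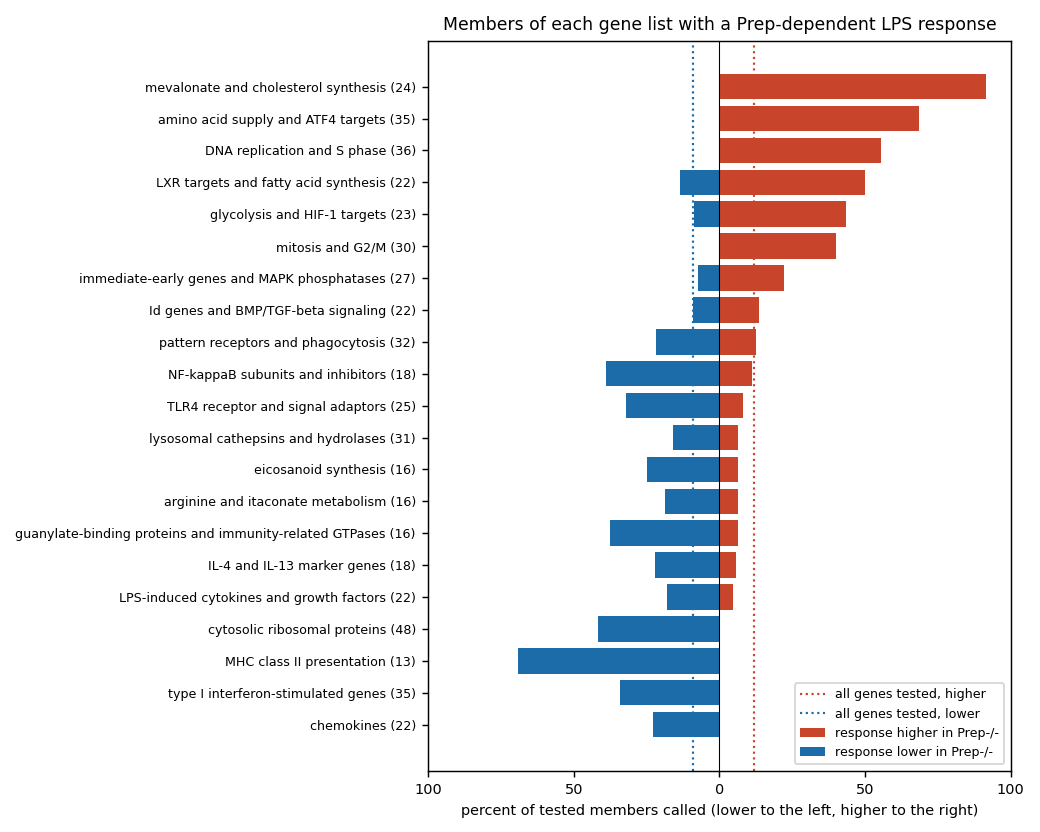
Percent of the tested members of each gene list (number tested in parentheses) whose LPS response was shifted upward (red, to the right) or downward (blue, to the left) in Prep-/- BMDMs, with dotted lines at the share of all genes tested. Mevalonate and cholesterol synthesis stands at the top with 22 of 24 members shifted upward and none downward, and MHC class II presentation has the largest downward share with 9 of 13.

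In the LPS receptor complex the co-receptors lost their induction. Of 25 genes for TLR4, its partners and its adaptors, 8 shifted downward and 2 upward (median -0.09). *Cd14* had normalized counts of 4901, 5110 and 5684 in Prep+/- M0 against 21345, 28264 and 25979 in Prep+/- M1, and 12453, 7480 and 8390 in Prep-/- M0 against 11783, 13492 and 14526 in Prep-/- M1. It rose in Prep+/- BMDMs to more than any Prep-/- library held, and its Prep-/- response of 0.49 stayed under the fold threshold (interaction -1.78, standard error 0.27, edgeR adjusted p = 0.000282). *Ly96*, encoding MD-2, had 341, 286 and 295 in Prep+/- M0 against 564, 644 and 693 in Prep+/- M1, and 707, 595 and 842 in Prep-/- M0 against 599, 450 and 657 in Prep-/- M1 (interaction -1.37, standard error 0.22, edgeR adjusted p = 0.000414). *Tlr4* itself, named after its values were seen, was repressed in Prep+/- BMDMs (-0.69) and gave 0.15 in Prep-/- BMDMs (interaction 0.84, standard error 0.17, edgeR adjusted p = 0.00196). The related receptor *Cd180*, a TLR4-like protein without a signaling domain, and its partner *Ly86* (MD-1) moved in opposite directions. *Cd180* gained an induction with 2162, 2695 and 3249 in Prep+/- M0 against 3087, 1664 and 2199 in Prep+/- M1, and 1438, 2021 and 714 in Prep-/- M0 against 6942, 4142 and 5035 in Prep-/- M1 (interaction 2.17, standard error 0.50, edgeR adjusted p = 0.00551). *Ly86* gained a repression with 1762, 1470 and 1467 in Prep+/- M0 against 1941, 2176 and 2217 in Prep+/- M1, and 9847, 6644 and 7579 in Prep-/- M0 against 4094, 2870 and 3590 in Prep-/- M1 (interaction -1.62, standard error 0.32, edgeR adjusted p = 0.00197).

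Among inhibitors and subunits of NF-κB some inductions became weaker. Of 18 genes 7 shifted downward and 2 upward (median -0.37), and 9 did not pass the test. The downward genes comprised 5 weaker inductions, 1 lost induction and 1 gene with a response in neither genotype. *Nfkbiz*, encoding the nuclear cofactor IκBζ that is needed for secondary response genes, had normalized counts of 182, 191 and 186 in Prep+/- M0 against 1984, 1787 and 2125 in Prep+/- M1, and 874, 446 and 400 in Prep-/- M0 against 1280, 1108 and 1438 in Prep-/- M1 (interaction -2.24, standard error 0.36, edgeR adjusted p = 0.000486). *Relb*, a subunit of the noncanonical pathway, had 550, 508 and 378 in Prep+/- M0 against 1283, 1199 and 1308 in Prep+/- M1, and 1821, 1064 and 1015 in Prep-/- M0 against 1495, 1336 and 1267 in Prep-/- M1. Its induction was lost, and the Prep-/- M0 libraries were near the stimulated Prep+/- level (interaction -1.33, standard error 0.27, edgeR adjusted p = 0.00224). *Bcl3* followed (-1.17). Of the 2 upward genes *Tnip3*, an inhibitor of NF-κB signaling, had a stronger induction with 867, 1580 and 1456 in Prep+/- M0 against 3186, 3112 and 2896 in Prep+/- M1, and 998, 688 and 539 in Prep-/- M0 against 5758, 4545 and 4562 in Prep-/- M1 (interaction 1.5, standard error 0.36, edgeR adjusted p = 0.0071). The other was *Ikbkg*, the regulatory subunit of the IκB kinase, named after its values were seen (interaction 0.80, edgeR adjusted p = 0.0123). *Relb*, *Bcl3*, *Cd14* and *Ly96* were all higher in Prep-/- than in Prep+/- M0, by 1.44, 1.44, 0.85 and 1.22 on the log2 scale.

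Cytokine genes rose under LPS in both genotypes. Of 22 cytokines and growth factors tested, 20 rose in Prep+/- and 17 in Prep-/- BMDMs, 4 shifted downward and 1 upward (median -0.73, or -0.77 with groups of 3 counts or fewer per library set to that floor). Besides *Il1b*, *Ebi3*, a subunit of IL-27 and IL-35, responded more weakly with 1558, 1353 and 1182 in Prep+/- M0 against 5768, 6818 and 6406 in Prep+/- M1, and 2673, 1971 and 2410 in Prep-/- M0 against 3882, 4132 and 4667 in Prep-/- M1 (interaction -1.37, standard error 0.21, edgeR adjusted p = 0.000314). *Il10*, the main anti-inflammatory cytokine of macrophages, had 77.2, 86 and 73.8 in Prep+/- M0 against 152, 313 and 228 in Prep+/- M1, and 261, 136 and 206 in Prep-/- M0 against 275, 70.4 and 187 in Prep-/- M1. Its induction was called in Prep+/- BMDMs alone (interaction -1.72, standard error 0.53, edgeR adjusted p = 0.0261), but this call was lost without Prep+/- M0 replicate 3, Prep+/- M1 replicate 2 or Prep-/- M0 replicate 1. *Tnfsf9*, the ligand of the co-stimulatory receptor 4-1BB, was the member with a stronger induction (166, 286 and 310 in Prep+/- M0 against 474, 615 and 555 in Prep+/- M1, and 38.1, 37.2 and 62.5 in Prep-/- M0 against 586, 536 and 596 in Prep-/- M1; interaction 2.53, standard error 0.43, edgeR adjusted p = 0.000722).

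Chemokines shifted downward in 5 of 22 and upward in 0 of 22 (median -1.54, or -1.33 with the floor), and 8 rather than 5 were called with DESeq2 or without Prep-/- M0 replicate 3. *Ccl9*, a CC chemokine that attracts myeloid cells, lost its induction with 25244, 26286 and 23331 in Prep+/- M0 against 88341, 119994 and 111337 in Prep+/- M1, and 26744, 26030 and 38983 in Prep-/- M0 against 26255, 34768 and 47935 in Prep-/- M1 (interaction -1.85, standard error 0.27, edgeR adjusted p = 0.000237). *Ccl6*, of the same subfamily, reversed with 2101, 2112 and 1984 in Prep+/- M0 against 4922, 5978 and 7060 in Prep+/- M1, and 5398, 3793 and 4878 in Prep-/- M0 against 2456, 2578 and 3963 in Prep-/- M1 (interaction -2.18, standard error 0.27, edgeR adjusted p = 5.22e-05). Both stood about as high or higher in Prep-/- than in Prep+/- M0 and lower in M1. *Ppbp* and *Pf4*, a pair of CXC chemokines best known from platelets, had interactions of -2.56 and -1.46. The *Ppbp* call was lost without Prep-/- M0 replicate 1, and the *Pf4* call without Prep+/- M0 replicate 3, Prep+/- M1 replicate 2 or Prep-/- M1 replicate 2. Platelet markers were not among the lists.

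Interferon-stimulated genes were induced by LPS in both genotypes and stood higher in Prep-/- BMDMs before LPS. All 35 tested members rose in Prep+/- and 34 in Prep-/- BMDMs, 32 were already higher in Prep-/- M0 (against 15.4% of all genes), and 17 were still higher in M1 (against 12.3%). A weaker response was called for 12 and a stronger one for none (median -0.60). *Zbp1*, a sensor of nucleic acids, showed the pattern with 114, 94.4 and 115 in Prep+/- M0 against 6064, 7017 and 7030 in Prep+/- M1, and 1015, 454 and 595 in Prep-/- M0 against 8517, 6157 and 7517 in Prep-/- M1. Its stimulated libraries overlapped between genotypes, and the difference lay in the start (interaction -2.53, standard error 0.43, edgeR adjusted p = 0.000695). *Ifi44* had 14.5, 19.2 and 21.2 in Prep+/- M0 against 1814, 1811 and 1830 in Prep+/- M1, and 204, 81.5 and 92.8 in Prep-/- M0 against 3742, 1998 and 3032 in Prep-/- M1 (interaction -2.08, standard error 0.57, edgeR adjusted p = 0.0152). *Ifit1bl1* and *Ifit3b* had interactions of -2.53 and -2.42, and *Ifit3b* has a near-identical copy in *Ifit3*. The count of 12 fell to 6 without Prep+/- M0 replicate 2 and to 7 without Prep-/- M0 replicate 1 or Prep-/- M1 replicate 2.

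Guanylate-binding proteins and immunity-related GTPases, which attack vacuoles of intracellular microbes, repeated this pattern. Of 16 tested, 15 were higher in Prep-/- M0 and 14 in M1, against 15.4% and 12.3% of all genes tested. The response of 6 shifted downward and that of 1 upward (median -1.31, or -0.9 with the floor). *Gbp2* had normalized counts of 284, 231 and 228 in Prep+/- M0 against 4664, 4345 and 5008 in Prep+/- M1, and 2911, 1492 and 1204 in Prep-/- M0 against 13200, 5943 and 8591 in Prep-/- M1, so that the Prep-/- libraries were above the Prep+/- libraries both before and after LPS (interaction -1.93, standard error 0.47, edgeR adjusted p = 0.00819). *Gbp6* was weaker as well (-2.81), though not called without Prep+/- M0 replicate 2 or Prep+/- M0 replicate 3. *Gbp8* lost a repression (1.99), a call absent without Prep+/- M0 replicate 1, Prep+/- M1 replicate 2, Prep+/- M1 replicate 3, Prep-/- M0 replicate 3 or Prep-/- M1 replicate 1. *Gbp4*, at 3 counts or fewer in Prep+/- M0, rose at least 24.1-fold there, and its call (-3.14, dependent on the prior count) was lost in 9 of the 12 single-library omissions, that is all but those of Prep-/- M0 replicate 2, Prep-/- M0 replicate 3 and Prep-/- M1 replicate 1. These last 3 genes share long stretches of sequence and their split of reads is uncertain. The count of 7 called members was 3 without Prep+/- M0 replicate 2, Prep+/- M0 replicate 3, Prep+/- M1 replicate 2 or Prep+/- M1 replicate 3. It was 4 without Prep+/- M0 replicate 1 or Prep-/- M0 replicate 1, Prep-/- M1 replicate 2 or Prep-/- M1 replicate 3.

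Promoters were available for 9681 of the 12021 genes as the 250 bases before the transcription start, from RefSeq on GRCm38.p6. The interferon-stimulated response element, searched on both strands as GAAA, any 2 bases and GAAA again, was found in 33 of 131 promoters of weaker inductions (25.2%), against 2.85% of all promoters. Among stronger inductions it was found in 3 of 109 (2.75%), among lost inductions in 8 of 195 (4.1%) and among gained inductions in 6 of 384 (1.56%). The share over all LPS-induced genes was not computed. A link of the element to induction by LPS and one to Prep therefore cannot be told apart. The NF-κB site was found in 8.61% of all promoters, 15.3% of those of weaker inductions, 13.8% of stronger inductions, 15.4% (4 of 26) of inductions that reversed, 10.8% of lost inductions and 8.59% of gained inductions. The AP-1 site, searched as TGANTCA, was in 4.39% of all promoters, 7.63% of weaker inductions and 3.08% of lost inductions. A match of letters is a description of the window and not a site of binding.

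Of the 18 genes leading the lost, gained and reversed classes, 12 had a promoter in the tables, and 3 of these held an NF-κB site. They are *Ms4a4a*, whose induction was lost, *Cspg4*, whose repression was lost, and *Fads2*, whose repression turned into an induction. The pattern searched allows several bases at some positions, so the matches differ in letters. Of the 3 genes, 2 are printed to show that matches to the same pattern precede genes of unlike response. The *Ms4a4a* window is chr19:11375238-11375487, plus strand, and the *Fads2* window chr19:10101504-10101753, minus strand, both on GRCm38.p6 and 5′ to 3′ toward the start, with the NF-κB site in capitals.
Ms4a4a: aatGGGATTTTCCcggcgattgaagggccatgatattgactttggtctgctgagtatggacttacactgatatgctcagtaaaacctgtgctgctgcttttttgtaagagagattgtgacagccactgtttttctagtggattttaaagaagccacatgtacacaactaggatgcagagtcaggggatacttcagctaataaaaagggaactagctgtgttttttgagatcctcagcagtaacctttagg
Fads2: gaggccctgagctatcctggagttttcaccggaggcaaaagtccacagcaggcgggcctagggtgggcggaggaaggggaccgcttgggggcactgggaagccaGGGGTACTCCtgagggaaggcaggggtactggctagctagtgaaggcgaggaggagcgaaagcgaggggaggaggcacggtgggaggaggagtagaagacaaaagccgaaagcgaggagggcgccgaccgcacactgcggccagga

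Several glycolytic genes were induced more strongly without Prep. Of 23 glycolytic genes and HIF-1 targets 10 shifted upward and 2 downward (median 0.71), 8 of them as a stronger and 2 as a gained induction. *Pgk1*, phosphoglycerate kinase, had normalized counts of 18794, 19869 and 20494 in Prep+/- M0 against 34579, 34911 and 32001 in Prep+/- M1, and 5104, 6859 and 7794 in Prep-/- M0 against 29107, 29721 and 30100 in Prep-/- M1. The Prep-/- libraries started under the Prep+/- level in M0 and came close to it in M1 (interaction 1.39, standard error 0.22, edgeR adjusted p = 0.000349). *Pfkp*, the platelet isoform of phosphofructokinase, was induced in Prep-/- BMDMs alone with 1358, 1699 and 2102 in Prep+/- M0 against 1902, 1466 and 1577 in Prep+/- M1, and 739, 788 and 612 in Prep-/- M0 against 2087, 2317 and 2040 in Prep-/- M1 (interaction 1.65, standard error 0.26, edgeR adjusted p = 0.000406), and *Pgam1* likewise (1.65). In M0, 15 of the 23 genes were lower in Prep-/- BMDMs, against 17.2% of all genes tested. In M1, 6 were lower and 1 was higher, against 10.2% and 12.3% of all genes. The median genotype difference was -0.99 in M0 and -0.37 in M1, so the larger fold went with a lower start. *Pfkfb3*, which makes an activator of phosphofructokinase, went the other way (-1.12). Its call was lost when only the 12 M0 and M1 libraries were fitted and in 7 of the 12 single-library omissions, those of Prep+/- M0 replicates 1 and 2, Prep+/- M1 replicates 1 and 3, Prep-/- M0 replicate 1 and Prep-/- M1 replicates 2 and 3.

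Of 27 immediate-early genes and MAP kinase phosphatases 6 shifted upward and 2 downward (median 0.21, or 0.14 with the floor), and 19 did not pass the test. The upward genes comprised 3 gained and 2 stronger inductions and 1 lost repression, the downward genes 1 weaker and 1 lost induction. *Dusp1*, which switches off p38 and JNK, had normalized counts of 518, 828 and 1233 in Prep+/- M0 against 2693, 2297 and 3020 in Prep+/- M1, and 375, 272 and 313 in Prep-/- M0 against 8912, 4586 and 4864 in Prep-/- M1 and a stronger induction (interaction 2.62, standard error 0.57, edgeR adjusted p = 0.00409). *Dusp4* gained an induction, from a lower start, with 85.9, 283 and 382 in Prep+/- M0 against 242, 217 and 183 in Prep+/- M1, and 52.2, 40.7 and 24.4 in Prep-/- M0 against 179, 186 and 210 in Prep-/- M1 (interaction 2.52, standard error 0.54, edgeR adjusted p = 0.00352). *Ier3*, an early response gene, responded more weakly with 452, 396 and 464 in Prep+/- M0 against 5287, 7362 and 6762 in Prep+/- M1, and 1433, 1144 and 1829 in Prep-/- M0 against 2377, 3165 and 3245 in Prep-/- M1 (interaction -2.89, standard error 0.31, edgeR adjusted p = 1.98e-05). *Fos* gained an induction (2.02), a call lost without Prep+/- M0 replicate 3, Prep+/- M1 replicate 2 or Prep-/- M1 replicate 3.

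Enzymes of eicosanoid and arginine metabolism changed singly rather than as groups. The background was 9.15% of all genes tested shifted downward and 12% upward. Of 16 eicosanoid genes 4 shifted downward and 1 upward. The upward member was *Pla2g4a*, the cytosolic phospholipase that frees arachidonic acid, with normalized counts of 710, 939 and 1142 in Prep+/- M0 against 1056, 955 and 1057 in Prep+/- M1, and 119, 156 and 104 in Prep-/- M0 against 1454, 1365 and 1429 in Prep-/- M1. Its Prep+/- libraries overlapped between states and its Prep-/- libraries rose from a lower level to above them (interaction 3.35, standard error 0.27, edgeR adjusted p = 2e-06). *Ptgs1*, the constitutive cyclooxygenase, was repressed more strongly (-1.63), *Tbxas1*, thromboxane synthase, gained a repression (-1.36), and *Pla2g7* was induced more weakly (-1.57), a call that only the omission of Prep-/- M0 replicate 2 or Prep-/- M0 replicate 3 left in place. Of 16 genes of arginine and itaconate metabolism 3 shifted downward and 1 upward, a count of 4 that fell to 2 without Prep-/- M0 replicate 1. The upward member was the arginine transporter *Slc7a1*, with 508, 681 and 923 in Prep+/- M0 against 629, 508 and 494 in Prep+/- M1, and 63.2, 57.6 and 58.6 in Prep-/- M0 against 463, 724 and 632 in Prep-/- M1 (interaction 3.71, standard error 0.70, edgeR adjusted p = 0.00142). *Arg2*, *Pts* and *Slc7a2* had interactions of -2.22, -1.19 and -0.87. The *Slc7a2* call was lost without Prep-/- M0 replicate 1, and the *Arg2* call without that library, Prep+/- M0 replicate 2, Prep+/- M0 replicate 3, Prep+/- M1 replicate 2 or Prep-/- M1 replicate 3.

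Cholesterol synthesis was the group most uniformly affected. LPS lowered 6 and raised 1 of its 24 tested genes in Prep+/- BMDMs, whereas in Prep-/- BMDMs it raised 20 and lowered none. Of all genes tested LPS lowered 20.9% and raised 16.7% in Prep+/- BMDMs. In Prep-/- BMDMs it raised 20.9% and lowered 21% of them. The interaction was called upward for 22 and downward for none (median 1.59), with 14 gained inductions, 4 reversals, 2 lost repressions, 1 stronger induction and 1 gene with a response in neither genotype. Leaving out any 1 library left between 20 and 22 called. In M0 10 of the genes were lower and in M1 20 were higher in Prep-/- BMDMs, against 17.2% and 12.3% of all genes tested. *Fdps*, which makes farnesyl pyrophosphate, had normalized counts of 2251, 2168 and 2104 in Prep+/- M0 against 1487, 1470 and 1438 in Prep+/- M1, and 871, 897 and 1272 in Prep-/- M0 against 3448, 4990 and 5042 in Prep-/- M1. Its Prep-/- libraries lay below the Prep+/- libraries in M0 and above them in M1 (interaction 2.72, standard error 0.40, edgeR adjusted p = 0.000208). *Idi1*, isopentenyl diphosphate isomerase, reversed with 280, 387 and 455 in Prep+/- M0 against 230, 102 and 136 in Prep+/- M1, and 106, 167 and 68.4 in Prep-/- M0 against 288, 412 and 464 in Prep-/- M1 (interaction 3.02, standard error 0.61, edgeR adjusted p = 0.00223), and *Hsd17b7* gained an induction with 133, 207 and 237 in Prep+/- M0 against 294, 232 and 210 in Prep+/- M1, and 45.2, 48.7 and 46.9 in Prep-/- M0 against 235, 412 and 476 in Prep-/- M1 (interaction 2.64, standard error 0.70, edgeR adjusted p = 0.0125). *Acat2*, which starts the pathway and has a near-identical copy in *Acat3*, reversed as well (3.05).

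Fatty acid synthesis moved with it. Of 22 LXR targets and genes of fatty acid synthesis 11 shifted upward and 3 downward (median 0.68). *Fads2* is described above, and *Scd1*, a stearoyl-CoA desaturase, had normalized counts of 25.1, 17.5 and 18.7 in Prep+/- M0 against 13.7, 17.8 and 12.8 in Prep+/- M1, and 43.2, 61.1 and 115 in Prep-/- M0 against 311, 428 and 297 in Prep-/- M1. Its interaction of 2.69 was called in the fit to all libraries, but in only 1 of the 12 single-library omissions, that of Prep-/- M0 replicate 3. The downward members belong to cholesterol efflux and its lipoproteins. *Apoe*, apolipoprotein E, had 31297, 19981 and 17963 in Prep+/- M0 against 11357, 13411 and 13197 in Prep+/- M1, and 227654, 119705 and 114484 in Prep-/- M0 against 19503, 8226 and 8750 in Prep-/- M1, so that LPS removed a high unstimulated level in Prep-/- BMDMs (interaction -2.79, standard error 0.50, edgeR adjusted p = 0.000961). Prep-/- M0 replicate 3, the library with hepatocyte markers, was the lowest of its group in *Apoe*. *Apoc1*, its neighbour gene, had 5.79, 5.85 and 2.54 in Prep+/- M0 against 2.28, 0 and 1.28 in Prep+/- M1, and 170, 110 and 158 in Prep-/- M0 against 5.5, 1.07 and 1.08 in Prep-/- M1 and an interaction of -3.92 that depends on the prior count, since the Prep+/- M1 libraries held 3 counts or fewer. It was lost in 8 of the 12 single-library omissions, all but those of Prep+/- M0 replicate 1, Prep+/- M1 replicate 2, Prep-/- M0 replicate 2 and Prep-/- M1 replicate 1. The cholesterol exporter *Abca1*, named after its values were seen, lost its induction (1.79 in Prep+/- and -0.37 in Prep-/- BMDMs, interaction -2.16).

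**Figure D5:**
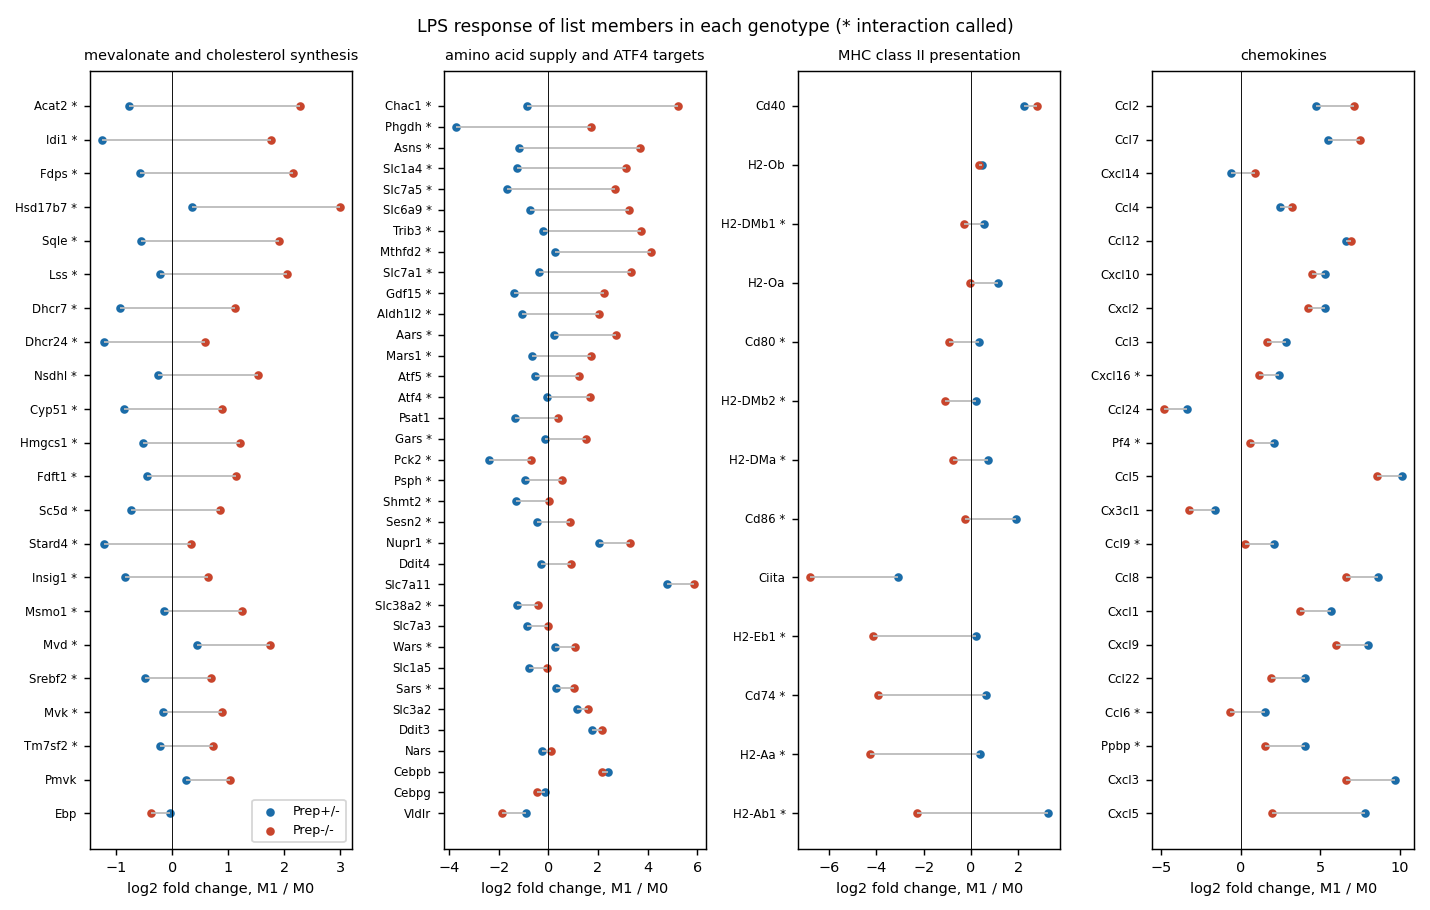
LPS response (log2 fold change, M1 over M0) of tested members of 4 gene lists in Prep+/- (blue) and Prep-/- BMDMs (red), with a grey line for the interaction and an asterisk where it was called. In the panel of mevalonate and cholesterol synthesis the red point lies to the right of the blue point for all members plotted but *Ebp*, and in the MHC class II panel 9 of 13 members are marked, all with the red point to the left.

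Many genes of amino acid supply gained an induction. ATF4 is a transcription factor that cells make when amino acids run short or proteins misfold, and it induces amino acid transporters, synthesis enzymes and tRNA ligases. Of 35 tested genes of amino acid supply and ATF4 targets, a list chosen after values had been seen and hence no independent evidence of its direction, 24 shifted upward and none downward (median 1.66). They comprised 13 gained and 1 stronger induction, 6 reversals, and 3 lost and 1 weaker repression, and 11 genes did not pass the test. In Prep+/- BMDMs LPS raised 5 and lowered 12 of the 35, against 16.7% and 20.9% of all genes tested. In Prep-/- BMDMs it raised 25 and lowered 2, against 20.9% and 21% of all genes. In M0, 22 of the 35 were lower in Prep-/- BMDMs, against 17.2% of all genes, and in M1 15 were higher, against 12.3%. Leaving out any 1 library left 23 or 24 called. *Asns* (chr6:7671667-7728461, minus strand), asparagine synthetase, had normalized counts of 1190, 1305 and 1452 in Prep+/- M0 against 694, 585 and 481 in Prep+/- M1, and 119, 158 and 244 in Prep-/- M0 against 2132, 2466 and 2214 in Prep-/- M1. The Prep+/- libraries fell and the Prep-/- libraries rose past them from a far lower start (interaction 4.87, standard error 0.55, edgeR adjusted p = 3.01e-05). *Chac1* (chr2:119180757-119184866, plus strand), which degrades glutathione, went from 1, 0.886 and 5.86 to 70.4, 136 and 93.7 in Prep-/- BMDMs, against 29.9, 63.5 and 60.2 and 41, 28.6 and 15.4 in Prep+/- BMDMs (interaction 6.07, standard error 0.86, edgeR adjusted p = 0.000167). *Slc1a4*, a transporter of neutral amino acids, reversed with 55.9, 61 and 72.1 in Prep+/- M0 against 28.5, 28.6 and 21.8 in Prep+/- M1, and 10, 6.2 and 10.7 in Prep-/- M0 against 51.7, 77.9 and 109 in Prep-/- M1 (interaction 4.39, standard error 0.60, edgeR adjusted p = 0.000135). The transporter *Slc7a5*, the mitochondrial folate enzyme *Mthfd2* and *Atf4* itself had interactions of 4.37, 3.88 and 1.71.

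The composite element to which ATF4 and C/EBP proteins bind, searched as TGATGNAA on both strands after the values had been seen, was found in 7 of the 29 promoters of this list that the tables held (24.1%), against 2.09% of all promoters. The list was chosen to hold ATF4 targets, so a high share was likely from the start. Among all gained inductions 9 of 384 promoters (2.34%) held the element. The share was 5.17% (3 of 58) for repressions that reversed and 5.5% (6 of 109) for stronger inductions. The windows of *Asns* and *Chac1*, the members with the largest interaction that hold it, are printed with the element in capitals. They are chr6:7693210-7693459, minus strand, and chr2:119350992-119351241, plus strand, on GRCm38.p6, where *Chac1* holds the reverse complement. In *Asns* the element begins 23 bases and in *Chac1* 193 bases before the start.
Asns: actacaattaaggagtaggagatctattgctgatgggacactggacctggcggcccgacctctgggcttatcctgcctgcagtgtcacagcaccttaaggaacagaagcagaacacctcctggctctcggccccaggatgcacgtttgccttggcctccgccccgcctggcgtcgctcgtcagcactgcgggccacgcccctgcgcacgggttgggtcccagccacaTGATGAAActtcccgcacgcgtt
Chac1: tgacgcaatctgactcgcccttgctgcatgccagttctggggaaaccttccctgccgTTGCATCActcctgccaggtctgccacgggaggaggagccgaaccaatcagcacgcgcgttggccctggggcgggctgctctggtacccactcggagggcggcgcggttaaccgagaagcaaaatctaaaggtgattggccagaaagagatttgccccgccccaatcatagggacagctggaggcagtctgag

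Cell cycle genes were repressed by LPS in Prep+/- BMDMs and started lower in Prep-/- BMDMs. Of 36 genes of DNA replication 33 fell in Prep+/- and 8 in Prep-/- BMDMs, and all 36 were already lower in Prep-/- M0, against 17.2% of all genes tested. In M1, 27 were still lower in Prep-/- BMDMs, against 10.2% of all genes. The interaction was upward for 20 and downward for none (median 1.02), with 15 repressions lost and 3 reversed. *Pcna*, the sliding clamp of DNA polymerase, had normalized counts of 10063, 11008 and 11391 in Prep+/- M0 against 5551, 5963 and 5557 in Prep+/- M1, and 2728, 2146 and 3757 in Prep-/- M0 against 7734, 5407 and 6650 in Prep-/- M1. It fell in Prep+/- and rose in Prep-/- BMDMs (interaction 2.12, standard error 0.42, edgeR adjusted p = 0.00201). *Chaf1b* and *Gins1* had interactions of 1.97 and 1.51. *Chaf1b*, a subunit of a histone chaperone, reversed with 840, 975 and 943 in Prep+/- M0 against 498, 447 and 499 in Prep+/- M1, and 199, 249 and 249 in Prep-/- M0 against 448, 465 and 513 in Prep-/- M1.

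Of 30 mitosis genes all fell in both genotypes, against 20.9% of all genes tested in Prep+/- and 21% in Prep-/- BMDMs. In Prep-/- M0 29 were lower and in Prep-/- M1 12, against 17.2% and 10.2% of all genes. Under LPS 12 fell by less in Prep-/- BMDMs (median 1.02). *Tpx2*, a spindle assembly factor, had normalized counts of 2939, 3185 and 3408 in Prep+/- M0 against 483, 402 and 391 in Prep+/- M1, and 547, 1218 and 1036 in Prep-/- M0 against 619, 410 and 480 in Prep-/- M1. The stimulated libraries of both genotypes overlapped (interaction 2.01, standard error 0.34, edgeR adjusted p = 0.000725). *Hmmr*, *Cenpe* and *Aurkb* had interactions of 1.51, 1.38 and 1.37. The *Cenpe* call was lost without Prep-/- M1 replicate 1 or Prep+/- M1 replicate 3. The *Hmmr* call was lost without Prep+/- M0 replicate 3, Prep+/- M1 replicate 2, Prep-/- M0 replicate 3, Prep-/- M1 replicate 2 or Prep-/- M1 replicate 3. The count of 12 was 4 without Prep-/- M1 replicate 2, 5 without Prep+/- M1 replicate 2 or Prep+/- M1 replicate 3, 6 without Prep+/- M0 replicate 3, and 7 without Prep+/- M0 replicate 2 or Prep-/- M1 replicate 3.

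MHC class II genes, which present antigen to CD4 T cells, had the largest downward share of the 21 pathway lists. Of 13 tested members 9 shifted downward and none upward (median -1.5). In M0 10 were higher in Prep-/- BMDMs, and LPS lowered 8 there against 1 in Prep+/- BMDMs. *H2-Ab1*, the beta chain of I-A, had normalized counts of 116, 124 and 72.1 in Prep+/- M0 against 871, 1178 and 934 in Prep+/- M1, and 4934, 722 and 704 in Prep-/- M0 against 392, 445 and 467 in Prep-/- M1. It rose in Prep+/- and fell in Prep-/- BMDMs (interaction -5.54, standard error 0.82, edgeR adjusted p = 0.000229). *Cd74*, the invariant chain, had 663, 666 and 462 in Prep+/- M0 against 895, 1028 and 843 in Prep+/- M1, and 23436, 3908 and 4088 in Prep-/- M0 against 706, 655 and 722 in Prep-/- M1, with a fall in Prep-/- libraries and a Prep+/- response of 0.63 that was not called (interaction -4.54, standard error 0.70, edgeR adjusted p = 0.000332). *H2-Aa* and *H2-Eb1* had 3521, 518 and 427 and 2342, 330 and 267 in Prep-/- M0, and 91.3 or fewer in every Prep-/- M1 library (-4.64 and -4.35). Prep-/- M0 replicate 1 stood well above its replicates in each of these genes. Without it 8 members were called, and under all alternatives the interaction stayed between -5.95 and -3.97 for *H2-Ab1* and between -4.93 and -3.15 for *Cd74*. Among marker genes of other antigen-presenting or CD4-bearing cells, *Cd4* and *Cd79b* were also highest in Prep-/- M0. Mean CPM in Prep+/- and Prep-/- M0 were 0.0698 and 0.436 for *Vpreb1*, 0 and 0.425 for *Siglech*, and 0.0132 and 0.248 for *Flt3*. *Cd3d*, *Cd79a* and *Ms4a1* were at 0 in Prep-/- M0. Dendritic cell markers summed to 0.969 to 1.52 CPM in Prep-/- M0, against 0.2 to 0.547 in Prep+/- M0 and 0.606 to 1.46 in Prep+/- M1. A part of such cells in the MHC class II result was not tested.

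Receptors, markers of IL-4 and IL-13 treatment and lysosomal genes shifted in both directions, in each list more often downward than upward. Their median interactions were -0.22, -0.85 and -0.25 in the same order. Their counts stand against 9.15% of all genes tested shifted downward and 12% upward. Of 32 pattern receptors and phagocytic receptors 7 shifted downward and 4 upward. *Tlr2*, the receptor for bacterial lipoproteins, reversed with normalized counts of 2052, 2341 and 1663 in Prep+/- M0 against 4257, 4403 and 4063 in Prep+/- M1, and 4983, 3834 and 2986 in Prep-/- M0 against 1545, 2619 and 1914 in Prep-/- M1 (interaction -2.03, standard error 0.31, edgeR adjusted p = 0.00028). *Msr1*, a scavenger receptor, was induced more strongly with 8362, 11495 and 11623 in Prep+/- M0 against 44684, 45666 and 48509 in Prep+/- M1, and 2260, 2128 and 2006 in Prep-/- M0 against 36041, 34098 and 39115 in Prep-/- M1, where the Prep-/- libraries started lower (interaction 1.95, standard error 0.26, edgeR adjusted p = 0.000106). *Fcgr2b*, the inhibitory Fc receptor, was induced more weakly (-2.12), and *Cd163*, the haptoglobin-hemoglobin receptor, gained a repression (-2.22). Of 18 markers of IL-4 and IL-13 treatment 4 shifted downward and 1 upward, the latter being *Pparg*, a nuclear receptor, whose repression was weaker (315, 416 and 439 in Prep+/- M0 against 53.5, 61.9 and 47.5 in Prep+/- M1, and 368, 275 and 242 in Prep-/- M0 against 173, 111 and 129 in Prep-/- M1; interaction 1.74, standard error 0.28, edgeR adjusted p = 0.000457). Of 31 lysosomal genes 5 shifted downward and 2 upward. *Lipa*, the lysosomal lipase that frees cholesterol from its esters, lost its repression with 20786, 23687 and 25838 in Prep+/- M0 against 6296, 5132 and 5088 in Prep+/- M1, and 18377, 18651 and 10929 in Prep-/- M0 against 15916, 11158 and 11433 in Prep-/- M1 (interaction 1.77, standard error 0.30, edgeR adjusted p = 0.000628). *Ctsf*, *Ctsh* and *Gla* had interactions of -1.80, -1.22 and 1.04.

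In the TGF-β and BMP pathway 3 of 22 genes shifted upward and 2 downward, near the 12% and 9.15% of all genes tested. The genes below are therefore single cases and no result about the pathway. *Id1*, an inhibitor of basic helix-loop-helix factors, reversed with normalized counts of 207, 732 and 776 in Prep+/- M0 against 125, 300 and 254 in Prep+/- M1, and 9.03, 3.54 and 19.5 in Prep-/- M0 against 23.1, 50.2 and 67.8 in Prep-/- M1, and remained lower in Prep-/- than in Prep+/- libraries in both states (interaction 3.49, standard error 0.90, edgeR adjusted p = 0.0103). *Smad3*, a transducer of TGF-β, lost its induction with 177, 191 and 182 in Prep+/- M0 against 402, 350 and 419 in Prep+/- M1, and 320, 294 and 266 in Prep-/- M0 against 235, 268 and 267 in Prep-/- M1 (interaction -1.28, standard error 0.18, edgeR adjusted p = 0.000167). *Tgfb1* gained a repression (-1.15) and *Id2* a stronger induction (1.11), the latter not called without Prep+/- M0 replicate 2, Prep+/- M0 replicate 3, Prep+/- M1 replicate 1, Prep+/- M1 replicate 3, Prep-/- M0 replicate 2 or Prep-/- M1 replicate 1.

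Cytosolic ribosomal protein genes were called downward for 20 of 48 and upward for none (median -0.74), but this count was not stable. It was 7 without Prep-/- M0 replicate 3 and 40 without Prep-/- M0 replicate 2, and 37 with DESeq2. Leaving out Prep+/- M1 replicate 2 gave 4, Prep+/- M0 replicate 3 gave 6, Prep+/- M1 replicate 3 gave 8, Prep+/- M0 replicate 2 or Prep-/- M1 replicate 1 gave 9, Prep-/- M1 replicate 2 gave 10, Prep-/- M1 replicate 3 gave 11, Prep-/- M0 replicate 1 gave 38 and Prep+/- M1 replicate 1 gave 39. *Rplp2*, a protein of the ribosomal stalk, illustrates this with normalized counts of 13984, 11784 and 8578 in Prep+/- M0 against 9486, 15889 and 12523 in Prep+/- M1, and 12207, 9683 and 28522 in Prep-/- M0 against 7517, 7927 and 8302 in Prep-/- M1, where Prep-/- M0 replicate 3 was the highest. That library also held the hepatocyte markers, whose part in the result was not tested. *Rps27*, *Rplp1* and *Rps15* had interactions of -1.18, -1.17 and -0.95. The calls of *Rplp1*, *Rplp2* and *Rps15* were lost in 8 of the 12 single-library omissions, all but those of Prep+/- M0 replicate 1, Prep+/- M1 replicate 1, Prep-/- M0 replicate 1 and Prep-/- M0 replicate 2.

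The genotype difference after LPS was set beside that after IL-4 and IL-13 for the 30 genes leading the classes. It differed between M1 and M2 for 22 of the 30, whereas 11.9% of all genes tested differed in this way. In M2 21 of the 30 were called between genotypes, against 16.2% of all genes. The same count was 28 of the 30 in M0 and 16 in M1, against 32.6% and 22.5% of all genes. The log2 difference of *Thbs1* between Prep-/- and Prep+/- BMDMs stood at 4.63 for M0, -1.66 for M1 and 2.11 for M2, so that its excess in Prep-/- BMDMs persisted under IL-4 and IL-13 and was absent under LPS (M1 minus M2 -3.77, edgeR adjusted p = 0.000101). *Phgdh* was -2.08, 3.37 and -1.24 in the same order (M1 minus M2 4.61, edgeR adjusted p = 0.000196). *Ms4a4a*, at 5.07, -0.30 and 0.78, did not differ between M1 and M2 at the threshold (edgeR adjusted p = 0.156). The 30 genes were chosen for a large interaction, which itself favors a genotype difference in M0 or M1. The M1 comparison is also shared by the interaction and by this test, so the counts are not independent of the choice of the genes.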

How the data were processed

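Bulk RNA-seq of BMDM mRNA was made with a stranded kit, and groups and replicate numbers were taken from the labels. The authors trimmed reads with Trimmomatic 0.36, aligned them to GRCm39 with HISAT2 2.2.1.0 and assembled them with stringtie2, and deposited counts per gene symbol without normalization, for 16314 symbols in 18 libraries. The annotation release and the handling of strand and of multiply matching reads are not given in the sources used here, so paralogs and overlapping genes remain uncertain. Everything from the counts on was computed here, and the number of sample columns without a sample was 0.

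The 12021 genes kept by filterByExpr were scaled by TMM (factors 0.818 to 1.2) and fitted in edgeR 4.0.16 (limma 3.58.1, R 4.3.3) over all 18 libraries, each group with its own coefficient. The quasi-likelihood test with Benjamini-Hochberg adjustment gave the interaction, the LPS response in each genotype and the genotype difference in each state, all from the same libraries. Calls needed an adjusted p below 0.05 together with a fold change above 1.5. The study's DESeq2 was an alternative (DESeq2 1.42.0), beside other filters, scaling, fold criteria, the 12 libraries alone, replicate blocks and leaving out each library. Groups with at most 3 counts in every library were treated as at the floor. Floors cover counting error only.

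Total counts per library were 19068237 to 22598279, and the biological coefficient of variation was 0.167. Replicates differed by more than sampling noise in every group. On simulated counts for the interaction (11923 genes), the test recovered 39% of 100 changes of 1 log2 unit and 95% of 100 changes of 2 log2 units, and 7.59% of 145 calls were false. The 200 changed genes were drawn from well-counted ones, and no simulated library was made to stand apart. In the data 2540 genes were called, so these rates need not hold there or for genes near the floor.

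Named are *Prep*, the study's 8 polarization markers, in each class and direction the 3 genes with the largest absolute interaction among those with a group mean of at least 5 CPM that stayed called without any 1 of the 12 libraries (symbols of the forms Gm with digits and Rik left out), and up to 4 called members of each list. A few of these genes are not reported here. Members, lists and tests were chosen with earlier results of these data known, and the list of amino acid genes and its motif after values had been seen. Gene positions are from GENCODE on GRCm39, which matched 11715 tested symbols, near copies from blastn 2.17.0 (at least 95% identity over 150 bases), and promoters from RefSeq on GRCm38.p6, taking the first listed start. Figures were drawn with matplotlib 3.10.9.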

Additional observations from a re-analysis of the deposited data

Results flagged for a closer look

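The LPS response differed between the genotypes by a test of the difference itself, the interaction of genotype and LPS, in 1440 genes with a higher and 1100 genes with a lower response in Prep-/- BMDMs. The genes leading each class are given with the interaction on the log2 scale, all of them called in the edgeR quasi-likelihood test. Inductions lost without Prep were led by *Thbs1*, *Ms4a4a* and *Ifitm1* (-6.3, -5.37 and -3.95), and lost repressions by *Matn2*, *Cspg4* and *Arap2* (4.08, 3.57 and 3.42). Gained inductions were led by *Soat2*, *Pcdhgc3* and *Trib3* (5.53, 4.71 and 3.96), and gained repressions by *Ccdc152*, *Adgre4* and *Fxyd2* (-6.15, -6.13 and -4.99). Responses that turned from a rise in Prep+/- to a fall in Prep-/- BMDMs were led by *H2-Ab1*, *Adam19* and *Fam43a* (-5.54, -4.61 and -4.49), and those that turned from a fall to a rise by *Aqp9*, *Phgdh* and *Fads2* (8.07, 5.45 and 4.93). Weaker inductions were led by *Acpp*, *Ntng2* and *Cp* (-5.08, -4.5 and -4.38) and weaker repressions by *Pcp4l1*, *Arhgap33* and *Ccsap* (3.77, 2.52 and 2.2). Stronger inductions were led by *Klra2*, *Rmi2* and *Runx3* (3.63, 3.13 and 2.97) and stronger repressions by *Gpr34*, *Clec10a* and *Clec7a* (-4.55, -3.23 and -2.87). Groups of 3 libraries were too small for a test of single libraries standing apart.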

How the results depend on the processing

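The counts of interactions, 1440 upward and 1100 downward, stayed within 1.5 times their value under all alternatives but one. Tested against a fold of 1.5 (glmTreat), 446 and 305 remained called, and 253 lost, 280 gained, 24 reversed, 56 weaker and 60 stronger responses. The same test called 1313 rises and 1643 falls for LPS in Prep+/- BMDMs, 1627 and 1585 in Prep-/- BMDMs, 837 genes higher and 1133 lower in Prep-/- M0, and 361 higher and 273 lower in Prep-/- M1. Without a fold criterion the reversed class held 259 and the stronger class 411 genes, and 2922 genes were higher in Prep-/- M0, 2372 higher and 1998 lower in Prep-/- M1. DESeq2 called 2827 interactions, of which 2479 were also called in the main test, with 52.7% upward, and DESeq2-type size factors 2551, of which 2456 were shared. Leaving out each library in turn gave 1072 to 1664 upward and 784 to 1423 downward interactions, 519 to 799 lost, 649 to 1147 gained, 84 to 138 reversed, 227 to 338 weaker and 183 to 274 stronger responses. Over the same omissions 961 to 1518 genes were higher and 781 to 1348 lower in Prep-/- M1, each lowest without Prep-/- M1 replicate 1, which moved both counts by over 1.5 times. The cause of these shifts was not tested.

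Of 2340 interaction values, those of 117 genes chosen by the naming rule under 20 alternatives each, 2192 kept their direction and their side of the threshold, 143 lost the call, 3 gained it, all of them for *Chil3*, and 2 reversed. The reversed values were those of *Nos2*, at -0.0873 without Prep+/- M0 replicate 2 (range over the omissions -0.0873 to 1.77), and *Il6*, at 0.41 without Prep-/- M0 replicate 3 (range -4.43 to 0.41). Neither was called in any setting, and each had at least 1 M0 group at the floor.

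The replicate numbers are shared by the groups, but deviations of same-numbered M0 and M1 libraries correlated at -0.269, 0.0799 and -0.0595 in Prep+/- and at 0.201, 0.169 and 0.259 in Prep-/- BMDMs, so that the numbers were not taken to pair the libraries. With a replicate block across genotypes 2599 interactions were called, 2452 of them shared with the main test, and with a replicate block within genotype 2586, 2368 of them shared. Either replicate block took the call from 3 of the 117 genes, *Pla2g7*, *Rplp2* and *Rps15*. Own numbers correlated best for 3 of 3 Prep-/- and 1 of 3 Prep+/- libraries. At this depth a single gene with 3 counts or fewer per library in M0, such as *Il6*, gives a bound and no measured fold change.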
